A study of Mus musculus with 8 samples.

Results

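Parathyroid hormone acts on bone-forming cells through a short chain of proteins, and 9 genes of that chain are described here. They are the receptor gene Pth1r, the ligand gene Pthlh, the G protein gene Gnas, the adenylyl cyclase genes Adcy3, Adcy6, Adcy7 and Adcy9, and the cAMP-induced genes Crem and Pde4b. These members, 9 of the 55335 gene identifiers in the deposited table, were chosen by their role in the pathway and from values of these same libraries. Their differences between groups are therefore given as descriptions, without p-values. Of the 9, 6 passed the filter on low values and entered the comparison across genes, and 3 (Pthlh, Crem and Pde4b) did not. Pth1r passed the filter through the HA group alone, with 4 HA libraries and 0 TABS libraries at or above 1 FPKM (fragments per kilobase of transcript, scaled to the fragments of the library).

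RNA was sequenced from MC3T3-E1, an established pre-osteoblast line from mouse calvaria, in 2 groups of 4 libraries. In the group called TABS, cells were kept with the submitters' Trio-Active bone scaffold, whose composition the labels do not state. In the group called HA, they were kept with a hydroxyapatite scaffold doped with Mg2+. Both lasted 3 days, the labels name no hormone treatment, and cells without a scaffold were not analysed here. A gene lower with TABS may thus equally be described as higher with HA. The labels do not say whether the replicates were separate cultures, so the errors and p-values below measure the spread between libraries, which may be technical. Library names carry the letters H for TABS and L for HA, and no gene in the table tells which scaffold a library was grown with.

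Between 11187 and 11357 genes per library reached 1 FPKM, and all FPKM values of a library summed to between 304893 and 307263 with TABS and between 312629 and 317439 with HA. Read totals are unknown, so no counting interval accompanies any value. All 7 osteoblast markers examined were among the tested genes, with a summed level of 3995 to 4510 FPKM in TABS and 3495 to 3847 in HA. Spp1 carried that sum and was higher with TABS (3305 and 2431 FPKM, limma adjusted p = 0.0207). The means of the other 6 were lower with TABS, and these passed the test: Ibsp (14.5 and 50.3 FPKM, adjusted p = 1.51e-05), Sp7 (10.8 and 15.6, 0.00071) and Col1a1 (889 and 1171, 0.0269). Alpl (0.463 and 1.36 FPKM) met the filter through the HA group alone. It had 0 TABS and 4 HA libraries at or above 1 FPKM, so its p-value is left out. Runx2 and Bglap did not pass. In a limma fit without the filter on low values, Spp1 (adjusted p = 0.164) and Col1a1 (0.107) no longer passed, while Ibsp (0.000244) and Sp7 (0.00326) still did.

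Of the markers of other cell types, these stayed under 0.1 FPKM in every library: 2 of 6 of cartilage (Acan and Col9a1), 4 of 5 of fat (Adipoq, Pparg, Plin1 and Lep), 2 of 5 of macrophages (Ptprc and Adgre1), 3 of 4 of muscle (Myod1, Myog and Myh3) and 3 of 4 of endothelium (Cdh5, Kdr and Tek). Others were present. Sox9 of cartilage was at 36.5 FPKM with TABS and 34.8 with HA, and Col2a1 was at 5.49 and 4.32 FPKM and higher with TABS (limma adjusted p = 0.0393). Without the filter on low values Col2a1 did not pass (limma adjusted p = 0.098). Fabp4 of fat was at 3.15 and 2.94 FPKM and Cd14 of macrophages at 7.85 and 6.32 FPKM, neither passing the test. The summed levels ran from 41.4 to 44.4 FPKM in TABS and 37.7 to 42.2 in HA for cartilage, from 2.92 to 3.39 and 2.64 to 3.39 for fat, and from 7.11 to 9.37 and 6.36 to 7.03 for macrophages. They ran from 0.345 to 0.375 and 0.322 to 0.503 for muscle, and from 0.204 to 0.346 and 0.173 to 0.228 for endothelium. The part of these markers in the differences below was not tested.

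As background, parathyroid hormone and the related protein encoded by Pthlh bind the same receptor, a protein of the cell surface that couples mainly to the stimulatory G protein Gs. The alpha subunit of Gs, encoded by Gnas, switches on adenylyl cyclases, which make cyclic AMP, and cyclic AMP releases the catalytic subunits of protein kinase A to phosphorylate CREB. CREB binds the cAMP response element and induces genes such as Crem, whose short product ICER represses transcription, and Pde4b, whose product degrades cyclic AMP. In the osteoblast lineage this pathway is known for its part in both bone formation and the control of bone resorption.

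Because the chain ends at the cAMP response element, the promoters of the members were searched for it, and the matches are printed as the sequence context of the genes described below. The full element is the palindrome TGACGTCA, and its core is TGACG or, on the other strand, CGTCA. Both were searched in the 250 bases before each start site in RefSeq promoters of the build GRCm38.p6, and every full element also contains the core in both orientations. The table held 7 of the 9 members, without Adcy6 and Crem, and 15 of 16 cAMP-induced genes listed as comparators, without Sik1. None of the 7 members had the full element, against 2 of the 15 comparators (Dusp1 and Areg, 13.3%) and 478 of 27025 genes with a window (1.77%). The core was present before at least 1 start of 5 of the 7 members (71.4%) and of 11 of the 15 comparators (73.3%), against 19.8% of all genes. By windows, since several members have more than 1 start, it was present in 7 of 18 windows of the members (38.9%) and in 17.8% of all 32851 windows. These are matches of letters and do not show binding. The Gnas starts at chr2:174327749 and chr2:174327768 share the same core, which is counted in both windows. The core contains a CG pair, and the sets were not matched for GC content, so no enrichment is read from these shares. The lines below print the matches nearest the start for the 5 members and for the 2 comparators with the full element, 5′ to 3′ on the strand of the gene, with the element or its core in capitals.
Pth1r (chr9:110747291-110747317, minus strand): agggcgaggggCGTCAactgaggcaga
Gnas (chr2:174327700-174327726, plus strand): agaggttggggCGTCAtcaggctggtt
Adcy7 (chr8:88282953-88282979, plus strand): gatcatagagcCGTCAggggggtgggg
Adcy9 (chr16:4420507-4420533, minus strand): ggacccggcggTGACGtgcgcgggccg
Pde4b (chr4:102421510-102421536, plus strand): atttggctgcaCGTCAattttctcatc
Dusp1 (chr17:26508597-26508626, minus strand): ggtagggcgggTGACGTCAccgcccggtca
Areg (chr5:91139527-91139556, plus strand): gggctggtccgTGACGTCAcgggcggtggc
The Pth1r match lay 161 bases before the first of its 3 starts in that table, and no core lay before the other two. Those of Gnas, Adcy7, Adcy9 and Pde4b lay 38, 28, 24 and 34 bases before the start they are printed for.

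Pth1r, the receptor, was the member with the largest difference between the scaffolds. The gene (ENSMUSG00000032492) lies on the minus strand at chr9:110722085-110747145 of GRCm38. Its level was 0.938, 0.862, 0.936 and 0.933 FPKM in TABS libraries 1 to 4, and 2.34, 2.01, 1.88 and 2.01 FPKM in HA libraries 1 to 4. The highest TABS value was thus well under the lowest HA value, and the groups did not overlap. The means were 0.917 ± 0.0367 FPKM with TABS and 2.06 ± 0.197 FPKM with HA (SD, n = 4 each), a level 2.25 times as high with HA. On the log2(FPKM + 1) scale, TABS minus HA was -0.67 ± 0.06 (SE). This scale understates the change of a gene near 1 FPKM, and with 0.1 in place of 1 added before taking logs the same difference was -1.08. An exon of Myl3, a muscle myosin light chain gene on the opposite strand, covers 95 bases (3.25%) of the Pth1r exons. Myl3 did not exceed 0.0487 FPKM in any library. In bulk RNA, fewer cells carrying a transcript and less of it per cell cannot be told apart, here or for any gene below.

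Pthlh, the gene for parathyroid hormone-related protein, which osteoblast-lineage cells make locally, was detected at a similar level in both groups. It lies on the minus strand at chr6:147252101-147264183. The TABS libraries held 0.839, 0.744, 0.791 and 1.03 FPKM and the HA libraries 0.540, 0.838, 0.848 and 0.924 FPKM. The ranges overlapped, with HA 1 the lowest and TABS 4 the highest of the 8. The means were 0.851 ± 0.125 and 0.787 ± 0.169 FPKM (SD, n = 4), and the gene was under the filter, so no difference was fitted for it in the comparison. Transcripts of the receptor and of this ligand were near parity with TABS, at a ratio of Pth1r to Pthlh of 1.09 ± 0.126, and stood at 2.78 ± 1.04 with HA. The ratio ran from 0.907 to 1.18 over the TABS libraries and from 2.18 to 4.33 over the HA libraries. Pth and Pth2, the genes of the circulating hormone and of a related peptide, were listed at 0 in all 8 libraries. Pth2r, the second receptor of the family, did not exceed 0.0941 FPKM.

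**Figure D1:**
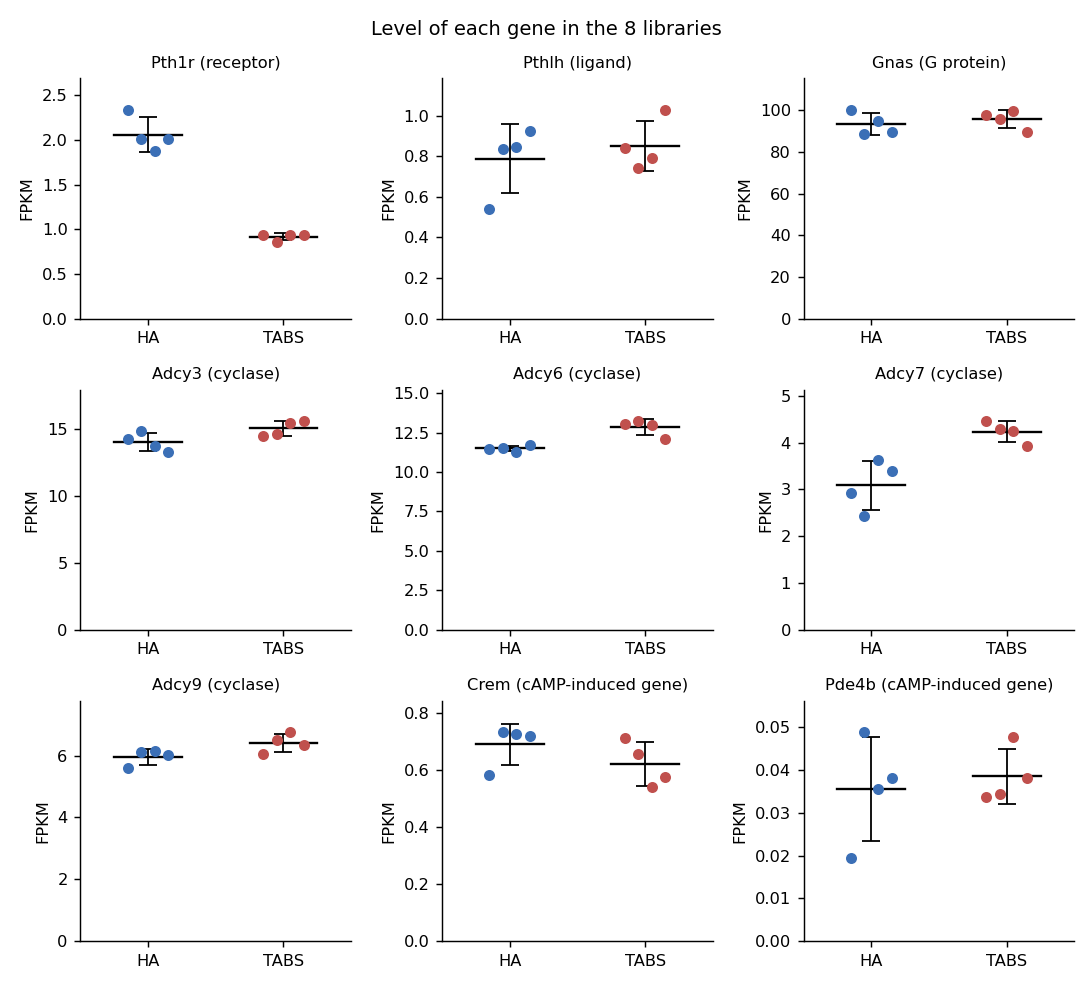
Level of each of the 9 members in FPKM (vertical axes, each from 0) in the 4 HA and the 4 TABS libraries. Points are libraries, and bars give the mean ± SD. The groups are apart for Pth1r, Adcy6 and Adcy7 and overlap for the other 6 genes.

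Gnas, the Gs alpha subunit through which the receptor signals, was by far the most abundant member and was level between the groups. The gene model spans chr2:174284320-174346744 on the plus strand, and the deposited value covers all transcripts of this complex locus together. It measured 97.7, 95.7, 99.8 and 89.8 FPKM with TABS and 100.3, 88.8, 95.1 and 89.7 FPKM with HA. Its difference was 0.03 ± 0.05 on the log2(FPKM + 1) scale, within 1 SE of 0, and it turned to -0.03 after correction for transcript GC content and length. With the receptor lower and Gnas level, the ratio of Gnas to Pth1r was 104.5 ± 6.18 with TABS and 45.6 ± 3.48 with HA. Genes on the opposite strand overlap its exons. Of these, the antisense gene Nespas reached at most 0.119 FPKM, and Gm20721, annotated as protein-coding, at most 0.058 FPKM.

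The other stimulatory alpha subunit gene, Gnal, did not exceed 0.105 FPKM in any library. Per length, Gnas transcripts outnumbered those of the 4 cyclase members together in every library. The ratio was 2.49 ± 0.0884 with TABS and 2.71 ± 0.171 with HA, with ranges of 2.37 to 2.57 and 2.55 to 2.93 that overlapped.

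All 4 adenylyl cyclase members were detected in every library, and their transcripts summed to more with TABS. The summed level was 38.5 ± 0.675 FPKM with TABS, from 37.9 to 39.4, and 34.6 ± 0.331 FPKM with HA, from 34.2 to 34.9 (SD, n = 4). No HA library reached the lowest TABS library. Among single tested genes, 18.0% had groups that did not overlap, and the 4 members were chosen from these values, so the separation is a description. The sum was not recomputed after correction for GC content and length. That correction took the median difference of the 4 genes from 0.121 to 0.046 on the log2(FPKM + 1) scale. The remaining cyclase genes were near 0: the highest value in any library was 0.0360 FPKM for Adcy5, 0.0209 for Adcy10, 0.00821 for Adcy4 and 0.00636 for Adcy1, and Adcy2 and Adcy8 were listed at 0 throughout.

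Adcy7, a cyclase whose activity is enhanced by G protein beta-gamma subunits, differed the most of the 4. It lies on the plus strand at chr8:88272403-88329962. The TABS libraries held 4.46, 4.30, 4.25 and 3.93 FPKM and the HA libraries 2.92, 2.43, 3.62 and 3.38 FPKM. Every TABS library was above every HA library, and the HA libraries were spread more widely, with a coefficient of variation of 17.1% against 5.30%. The means of 4.23 ± 0.224 and 3.09 ± 0.529 FPKM gave a level 1.37 times as high with TABS, and a difference of 0.36 ± 0.09 on the log2(FPKM + 1) scale. Adcy7 passed the threshold with all libraries. It no longer did when any 1 of TABS 1, TABS 2, TABS 3, TABS 4, HA 1, HA 2 or HA 4 was left out, and the difference then ran from 0.28 without HA 2 to 0.40 without HA 4. Nor did it pass without the filter on low values or after the correction for GC content and length, where the difference was 0.30.

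Adcy6, a cyclase inhibited by calcium, was separated between the groups without passing the threshold. Located on the minus strand at chr15:98589973-98610076, it measured 13.0, 13.2, 13.0 and 12.1 FPKM with TABS and 11.4, 11.5, 11.3 and 11.7 FPKM with HA. The lowest TABS library, TABS 4, was above the highest HA library by a small margin. Its difference was 0.15 ± 0.04 on the log2(FPKM + 1) scale, from 0.07 to 0.19 over the alternatives. It passed only where each library was rescaled to the same total (TPM, FPKM divided by its sum in the library).

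Adcy3 and Adcy9 overlapped between the groups. Adcy3, on the plus strand at chr12:4133103-4213525, measured 14.5, 14.6, 15.4 and 15.6 FPKM with TABS and 14.2, 14.8, 13.7 and 13.2 FPKM with HA. Its exons share 1380 bases (22.1% of their length) with Cenpo on the opposite strand, which was at 1.55 ± 0.146 and 1.43 ± 0.162 FPKM. Adcy9, a cyclase that responds little to forskolin, lies on the minus strand at chr16:4287529-4420498. It held 6.05, 6.51, 6.76 and 6.33 FPKM with TABS and 5.59, 6.12, 6.15 and 6.01 FPKM with HA. The differences of the 2 genes were 0.10 ± 0.05 and 0.09 ± 0.05 on the log2(FPKM + 1) scale, and after correction for GC content and length they were 0.02 each.

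The make-up of the cyclase transcripts was similar in the 2 groups. Adcy3 made up 39.0% ± 1.49 of the summed FPKM with TABS and 40.5% ± 1.89 with HA, Adcy6 33.3% ± 1.16 and 33.3% ± 0.701, and Adcy9 16.7% ± 0.534 and 17.3% ± 0.616. The share of Adcy7 was 11% ± 0.582 with TABS and 8.94% ± 1.54 with HA, and these ranges overlapped at their edges, with 10.4% both in the lowest TABS and in the highest HA library.

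**Figure D2:**
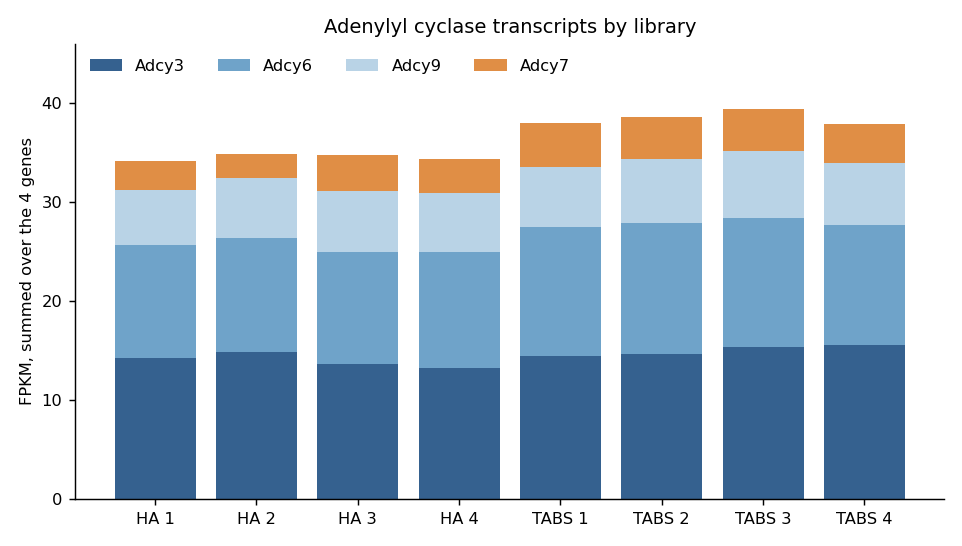
FPKM of the 4 adenylyl cyclase members (vertical axis, from 0), stacked for each of the 8 libraries. The stacks reach 34.2 to 34.9 in the HA libraries and 37.9 to 39.4 in the TABS libraries, and Adcy7 is the smallest part of each.

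The 2 cAMP-induced members were low in all libraries, and their groups overlapped. Crem, which encodes activators and repressors of the CREB family, lies on the minus strand at chr18:3266048-3337748. It measured 0.712, 0.656, 0.539 and 0.577 FPKM with TABS and 0.583, 0.734, 0.728 and 0.718 FPKM with HA, with means of 0.621 ± 0.0777 and 0.690 ± 0.0722. The deposited value joins all Crem transcripts, so the ICER form cannot be read from it.

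Pde4b, a cyclic AMP phosphodiesterase on the plus strand at chr4:102087543-102607259, was barely detected. The TABS libraries held 0.0337, 0.0345, 0.0478 and 0.0381 FPKM and the HA libraries 0.0195, 0.0489, 0.0357 and 0.0381 FPKM. The lowest and the highest of the 8 were both HA libraries. This level is of the order of the markers under 0.1 FPKM given above, so no change can be read from it.

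Across the 8 libraries the members kept a fixed order at the top, since Gnas (mean 94.6 FPKM) was always above Adcy3 (14.5), Adcy3 above Adcy6 (12.2), Adcy6 above Adcy9 (6.19), Adcy9 above Adcy7 (3.66) and Adcy7 above Pth1r (1.49). The ranges of Adcy3 and Adcy6 nevertheless overlapped over the 8 libraries. Pth1r stood above Pthlh (0.819) in 7 of 8 libraries, with 1 TABS library as the exception, and Pthlh stood above Crem (0.656) in 7 of 8. Pde4b (0.0370) was the lowest in each.

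Read against the whole table, the members as a group gave 2 calls, Adcy7 higher and Pth1r lower with TABS, out of 6 tested. Over all 11280 tested genes, 833 were called (7.38%), 506 of them higher (4.49%) and 327 lower (2.9%) with TABS. A further measure, complete separation of the 4 TABS from the 4 HA libraries, held for 3 of the 6 members (Pth1r, Adcy6 and Adcy7) and for 2030 of the tested genes (18.0%). The median difference of the 6 was 0.09 on the log2(FPKM + 1) scale against 0.01 over all tested genes, and it was 0.02 after the correction for GC content and length. Since the members were chosen with this contrast known, nothing is read from these shares.

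Within a group, the members showed no common direction of variation. After the group means were removed, the median Pearson correlation over the 15 pairs of the 6 tested members was 0.04 across 8 libraries. Single pairs ran both ways, from -0.84 for Adcy3 and Adcy7 to 0.46 for Pth1r and Gnas, so the median does not show that pairs were unrelated. All pairs share the same 8 libraries and their scaling, so these values are descriptions.

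The genes whose levels followed Pth1r most closely over the 8 libraries were Pcolce2 (Pearson r 0.996), Selenow (0.992), Ibsp (0.990), Kyat1 (0.989) and Sparc (0.987). Within groups, with the group means removed, the same correlations were 0.857, 0.723, 0.571, 0.803 and 0.806, again over 8 libraries and without a test. Pth1r varied less within TABS (SD 0.0367 FPKM) than within HA (SD 0.197), so these values rest mostly on the HA libraries. The genes were also picked for their correlation with Pth1r over the same values, so nothing further is read from them. Ibsp, which encodes bone sialoprotein of the mineralised matrix, was at 14.5 ± 1.32 FPKM with TABS and 50.3 ± 3.58 with HA. Sparc, which encodes osteonectin, a collagen-binding matrix protein, was at 319.7 ± 4.03 and 421.4 ± 25.3 FPKM. Pcolce2, an enhancer of procollagen processing, was at 4.77 ± 0.0692 and 8.68 ± 0.691 FPKM. Selenow, a selenoprotein gene, was at 111.5 ± 9.17 and 318.3 ± 40.6 FPKM. For Pde4b the closest were Apc (0.963), Dnajc16 (0.963), Laptm4a (0.950), Timm10b (0.943) and Med17 (0.939), but with Pde4b so near 0 this ranking carries no finding.

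**Figure D3:**
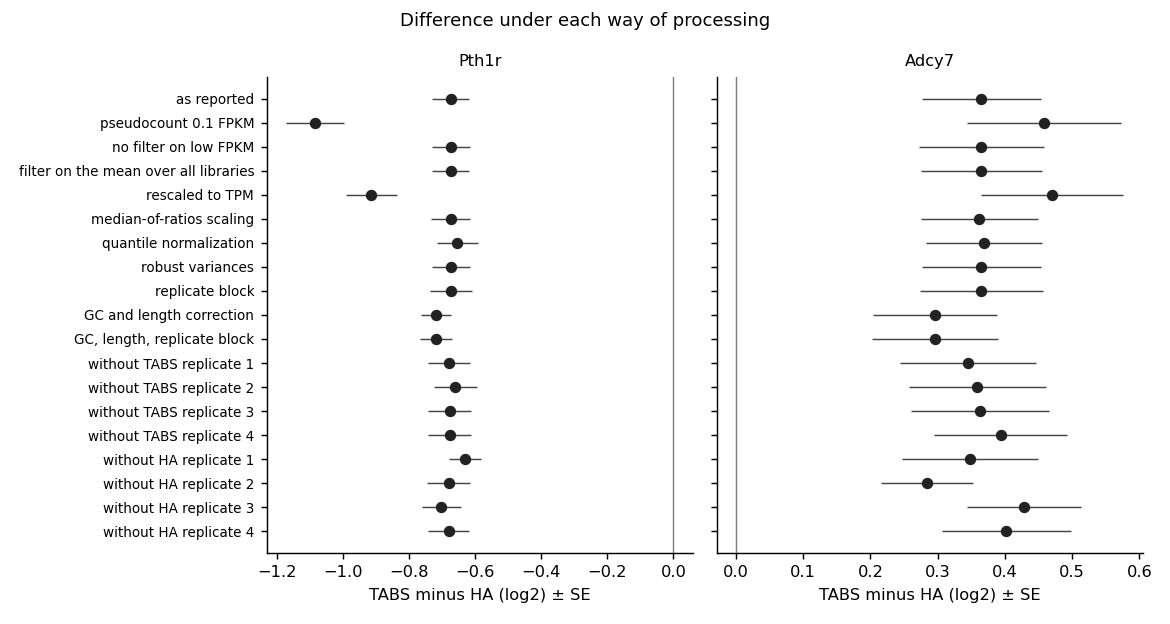
Difference of Pth1r and of Adcy7 between TABS and HA (horizontal axis, log2 scale, error bars ± SE) in the fit reported here and under 18 alternatives to it, on the vertical axis. Pth1r lies between -1.08 and -0.63 and Adcy7 between 0.28 and 0.47. Both were chosen from these values, so the plot shows how far the size moves with the processing and supports no call.

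The rest of the pathway was read from 8 lists with 122 genes, of which 62 passed the filter, 60 did not and 9 were listed at 0 in all libraries. Of the 62, 3 rose with TABS (Gnao1, Ep300 and Dusp1), 3 fell (Ramp2, Mmp13 and Gnai3), and 56 did not pass the threshold. That is a share near the 7.38% of all tested genes. After rescaling to TPM the split was 7 higher and 2 lower, and after the GC and length correction 1 higher and 3 lower. The median difference was 0.04 on the log2(FPKM + 1) scale, with 42 of 62 (67.7%) above 0, against 0.01 and 52.0% over all tested genes. After rescaling to TPM, 47 of 62 were above 0, and after the GC and length correction 38.

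**Figure D4:**
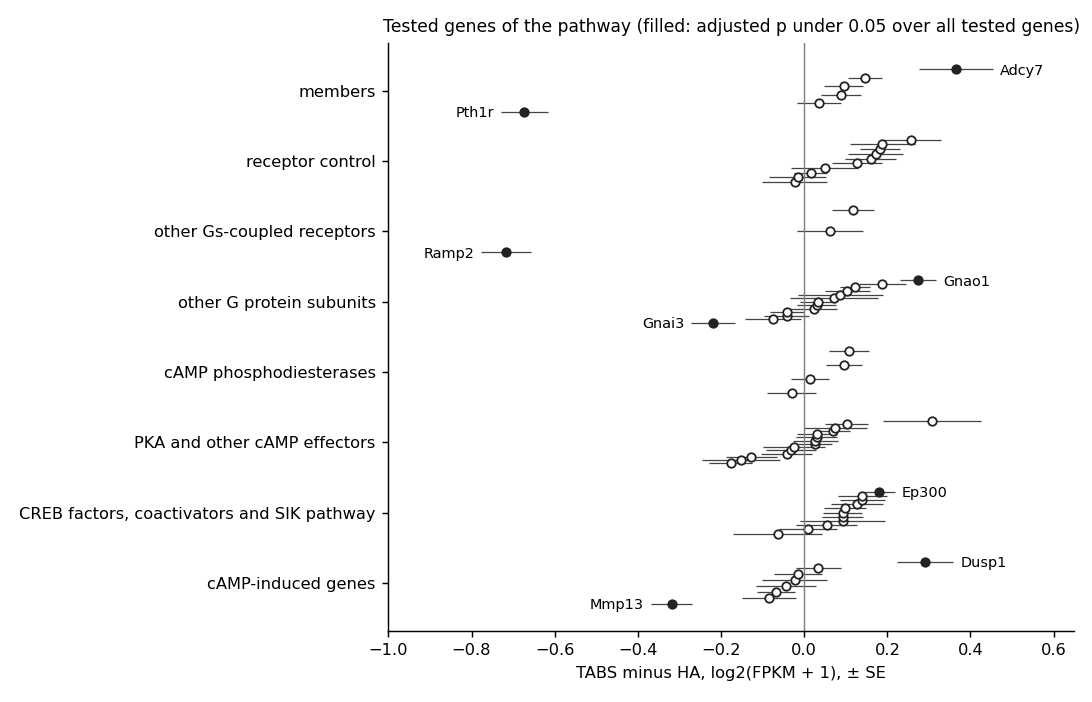
Difference between TABS and HA (horizontal axis, log2(FPKM + 1), TABS minus HA, bars ± SE) for each tested gene of the members and of the pathway lists, grouped by list on the vertical axis. Filled points passed the threshold, which for the members, chosen from these values, is a description only, and Pth1r and Ramp2 lie farthest to the left, at -0.67 and -0.72.

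Among the 62 tested genes of the lists, Ramp2 had the largest difference on the log2(FPKM + 1) scale. Genes under the filter are not in this ranking. It encodes a receptor activity-modifying protein, best known as the partner that makes the calcitonin receptor-like receptor respond to adrenomedullin and also reported to associate with the parathyroid hormone receptor. Its level was 10.5, 11.5, 11.1 and 12.3 FPKM in the TABS libraries and 20.8, 19.5, 18.9 and 17.9 FPKM in the HA libraries. The groups lay far apart, with means of 11.3 ± 0.768 and 19.3 ± 1.22 FPKM (SD, n = 4). The difference was -0.72 ± 0.06 on the log2(FPKM + 1) scale (limma, adjusted p = 0.000513), and Ramp2 passed the threshold under all 18 alternatives (adjusted p from 0.000166 to 0.0133). Its exons share 1103 bases (33.4% of their length) with Vps25, an endosomal sorting gene on the same strand, so reads of the pair cannot be fully told apart. Vps25 was at 21.3 ± 2.72 FPKM with TABS and 23.2 ± 3.47 with HA, and its difference of -0.11 ± 0.11 did not pass (adjusted p = 0.581).

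Like Pth1r, Ramp2 was lower with TABS, and the ratio of Ramp2 to Pth1r transcripts was 12.4 ± 1.06 with TABS and 9.39 ± 0.586 with HA. Ramp3, its paralog, was at 4.11 and 3.92 FPKM (0.06 ± 0.08, adjusted p = 0.685). Calcrl and Calcr, receptors that can pair with these proteins, did not exceed 0.0188 and 0.0120 FPKM. Of the 20 genes in the list of other Gs-coupled receptors and their partners, 3 were tested and 1 fell.

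Genes that damp or anchor the receptor (receptor kinases, arrestins, RGS proteins and the NHERF scaffolds) gave no call among 10 tested, while 5 of the 10 had an unadjusted p under 0.05 in limma, against 2716 of all 11280 tested genes (24.1%). Their median difference was 0.14 on the log2(FPKM + 1) scale. With 10 genes, in a list chosen with earlier results of these data known, no trend is read from these values. The 2 NHERF genes came closest to the threshold. Slc9a3r1, whose product binds the tail of the parathyroid hormone receptor, was at 16.7 FPKM with TABS and 13.8 with HA (0.26 ± 0.07, adjusted p = 0.0699). Slc9a3r2 was at 8.81 and 7.64 FPKM (0.18 ± 0.05, adjusted p = 0.0508). Both NHERF genes passed, higher with TABS, after rescaling to TPM. The receptor kinase gene Grk2 was at 20.4 and 18.1 FPKM (0.17 ± 0.07, adjusted p = 0.149).

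Among the other G protein genes, 13 of 16 were tested, 1 rose and 1 fell. Gnao1, an alpha subunit of the inhibitory class, held 17.7, 16.7, 17.6 and 17.9 FPKM with TABS and 14.1, 15.1, 14.2 and 13.7 FPKM with HA. Each TABS library was above each HA library, and the difference was 0.27 ± 0.04 (adjusted p = 0.00673). Gnai3, an inhibitory alpha subunit, was at 42.2 ± 1.14 FPKM with TABS and 49.3 ± 3.36 with HA (-0.22 ± 0.05, adjusted p = 0.0374). This call was lost when any 1 of TABS 1 to 4 or HA 1 to 3 was left out, and under TPM, quantile normalization, no filter and the GC and length correction, with adjusted p up to 0.148 over the alternatives. Gnai2, the most abundant inhibitory subunit, did not pass, at 100.01 ± 5.38 FPKM with TABS and 97.9 ± 2.59 with HA (0.03 ± 0.05, adjusted p = 0.752).

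Downstream of the cyclases, no gene of 4 tested phosphodiesterases or of 14 tested protein kinase A subunits, inhibitors, anchoring proteins and other cAMP effectors passed the threshold in limma, with 0 and 2 of them at an unadjusted p under 0.05, beside the 24.1% of all tested genes. Pde8a was the most abundant phosphodiesterase, at 19.99 FPKM with TABS and 18.5 with HA. Prkar1a, the main regulatory subunit gene here, was at 88.0 ± 2.22 and 86.2 ± 4.91 FPKM, and Prkaca, a catalytic subunit gene, at 51.4 ± 0.610 and 49.0 ± 2.25 FPKM. Under the alternatives, Prkar2a passed after the GC and length correction, lower with TABS, and Pkig passed without TABS 3, higher with TABS. Akap6, an anchoring protein of protein kinase A, was under the filter and was singled out after its values were seen. It held 0.333, 0.336, 0.314 and 0.285 FPKM with TABS and 0.576, 0.505, 0.523 and 0.592 FPKM with HA. These groups did not overlap, and neither did those of 18.0% of the tested genes, which do not include Akap6. In the fit without a filter its difference was -0.23 ± 0.03. Since Akap6 was picked from these values, this is a description and its p-value is left out.

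At the level of transcription factors, 11 of 12 genes of the CREB, coactivator and SIK list were tested and 1 rose. Ep300, an acetyltransferase that serves CREB as coactivator, was at 6.99 ± 0.0491 FPKM with TABS and 6.05 ± 0.126 with HA (0.18 ± 0.04, adjusted p = 0.0203). Its call was lost when any TABS library, HA 2 or HA 3 was left out and after the GC and length correction, with adjusted p up to 0.178 over the alternatives. Creb1 itself was at 1.73 and 1.63 FPKM (0.05 ± 0.07, adjusted p = 0.710).

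Genes known to be induced by cyclic AMP gave 1 call in each direction. Of 16, 8 were tested, 1 rose, 1 fell, and 2 of the 8 had a difference above 0. Over all tested genes, 7.38% were called and 52.0% were above 0. With 8 genes, no trend is read from these shares. Mmp13, a collagenase that parathyroid hormone induces in osteoblasts, held 137, 137, 133 and 131 FPKM with TABS and 165, 160, 165 and 184 FPKM with HA. Every HA library was above every TABS library, and the difference was -0.32 ± 0.05 (adjusted p = 0.00673). Dusp1, a phosphatase of MAP kinases and 1 of the comparators with the full element printed above, was at 25.7 ± 1.65 FPKM with TABS and 20.9 ± 1.78 with HA (0.29 ± 0.07, adjusted p = 0.0362). Its call was lost when any of TABS 1, 3 or 4 or HA 1, 2 or 4 was left out, without the filter, and after the GC and length correction, with adjusted p up to 0.106 over the alternatives. The early-response genes Nr4a1 (3.23 and 3.13 FPKM, adjusted p = 0.754), Per1 (14.6 and 15.1 FPKM, adjusted p = 0.764) and Sik1 (2.68 and 2.85 FPKM, adjusted p = 0.408) did not pass. Nor did Ptgs2 (2.56 and 2.77 FPKM, adjusted p = 0.469). Areg, the other comparator with the full element, did not exceed 0.0981 FPKM. Tnfsf11, the gene of the osteoclast factor RANKL, was listed at 0 in all 8 libraries.

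**Figure D5:**
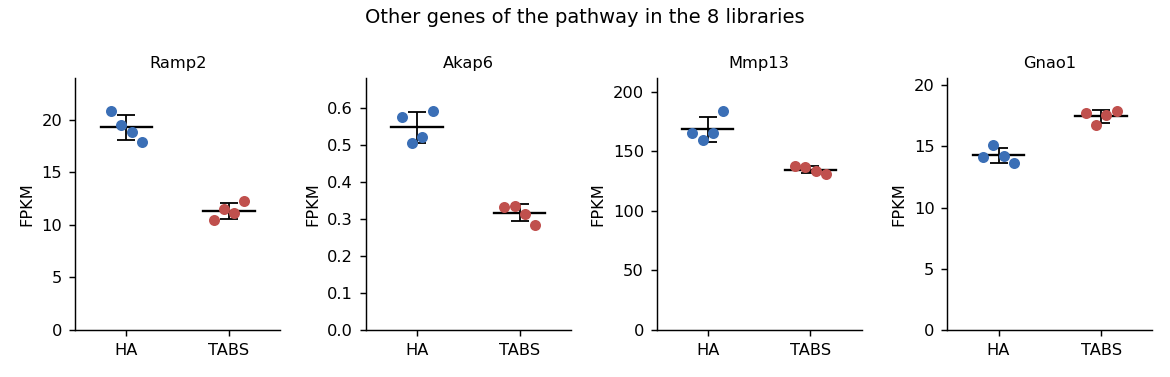
Level in FPKM (vertical axes, each from 0) of Ramp2, Akap6, Mmp13 and Gnao1 in the 4 HA and the 4 TABS libraries. Points are libraries, and bars give the mean ± SD. Ramp2, Akap6 and Mmp13 are lower in every TABS library than in every HA library, and Gnao1 is higher. Akap6 was under the filter and was picked after its values were seen, so its panel is a description only.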

How the data were processed

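The deposited table gives 1 FPKM value per gene and library for 8 libraries, normalised by the authors to transcript length and library size. The submitters' processing notes name the build GRCm38 and the tools STAR, fastp and DESeq2. Tool versions, the strand setting and how FPKM was computed are not stated in these sources, so reads of overlapping genes cannot be told apart. Columns were matched to samples by library name, and 0 value columns were left unused.

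Symbols, coordinates, GC content and lengths came from the GENCODE annotation of GRCm38, which held 55154 of the 55335 identifiers. Genes with at least 1 FPKM in at least 4 of 8 libraries (11280) entered a two-sided limma fit (version 3.58.1, R 4.3.3) of log2(FPKM + 1), with 1 as pseudocount and a variance trend, and Benjamini-Hochberg adjustment over all of them (threshold 0.05). Reads could not be recovered from the values, since only 22.2% to 29.8% of low values in single-exon genes were whole multiples of a step within 0.02, so no count test was run. The fit was tested on simulated data. The members and lists were chosen with earlier results of these data known. Named genes are all members, the called genes of each list (at most 6 by adjusted p), and the 5 tested genes with a symbol most correlated with Pth1r and with Pde4b; genes that did not pass are given as context. Some genes of the lists are not reported here. Alternatives were a pseudocount of 0.1, other filters, TPM, median-of-ratios and quantile scaling, robust variances, a replicate block, correction for GC content and length, and each library left out.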

Additional observations from a re-analysis of the deposited data

Results flagged for a closer look

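Over 30 groups of 4 libraries (15 genes, each in TABS and in HA), a library stood apart from the others of its group in 2 cases by Dixon's ratio, the gap to the nearest library divided by the range of the group, at its 95% critical value. Chance gives about 1 in 20 groups. Pth1r in TABS 2 was the lowest of its group, at 0.862 FPKM (ratio 0.938), while the other three TABS libraries lay between 0.933 and 0.938 FPKM. Crem in HA 1 was the lowest of its group, at 0.583 FPKM (ratio 0.897), with 0.718 to 0.734 FPKM in the others.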

How the results depend on the processing

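Ramp2 passed the threshold, lower with TABS, under all 18 alternatives. The differences of the members are descriptions, since they were chosen from these values, and that of Pth1r ran from -1.08 to -0.63 over the same alternatives. The difference of Gnas was -0.034 after the GC and length correction, with and without the replicate block; without HA 1, that of Pthlh was -0.017 and that of Pde4b -0.003. The other 6 members and the 6 called pathway genes kept their direction. The fit reported here called 833 genes (506 higher, 327 lower with TABS). Other settings gave their own totals: 542 without a filter (195 lower, 28201 genes tested), 1154 after rescaling to TPM (915 higher, 239 lower) and 921 after the GC and length correction (471 higher, 450 lower). Leaving out 1 library gave 415 (without TABS 3) to 718 (without HA 1) calls, 247 to 429 higher and 168 to 289 lower. With 1 library fewer, these fits also have fewer samples. Among the members, the number called was 2 in the fit reported here, 1 without a filter and 1 after the GC and length correction (0 higher in each), 3 after TPM (2 higher), and 1 to 2 with 1 library left out (0 to 1 higher, 1 lower). Among the 62 tested pathway genes, the number called was 6 in the fit reported here, 9 after TPM (7 higher), 4 after the GC and length correction (1 higher), and 3 to 5 with 1 library left out (1 to 2 higher, 2 to 3 lower). Where no cause is given, it was not tested.

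Same-numbered libraries deviated together only weakly or not at all (r 0.105, 0.050, -0.104 and -0.058 across genes). Pairs of unlike number ran from -0.164 (TABS 2 and HA 1) to 0.177 (TABS 4 and HA 3). These values show no pairing by number, but with 4 libraries per group they cannot exclude a shared batch. With the replicate block, 230 genes were called (136 higher, 94 lower), and with the GC and length correction and the replicate block 309 (152 higher, 157 lower). Under either replicate block 1 member, 0 of them higher, and 1 pathway gene, Ramp2 (0 higher, 1 lower), were called, and the adjusted p of Gnao1 and Mmp13 rose to at most 0.0806 and 0.0589. Depth is unknown, so how far counting error limits Pde4b, Crem and Pthlh could not be computed.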

Other observations

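Several receptor genes of the pathway lists stayed under the filter on low values. They were singled out after their values were seen and are given as levels, without p-values. Ramp1, the receptor activity-modifying protein of the CGRP receptor, was at 0.496 FPKM with TABS and 1.01 FPKM with HA on average, and did not pass the threshold in the fit without a filter. Vipr2, a receptor of vasoactive intestinal peptide, was at 0.602 and 0.443 FPKM. The adenosine receptor gene Adora2b was at 0.499 and 0.389 FPKM, and the prostaglandin receptor gene Ptger4 at 0.249 and 0.165 FPKM.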
